A study of Mus musculus with 2 samples.

Results

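Arterial blood endothelium, the lining of the arteries and arterioles that supply the mandibular lymph nodes, was described in 2 single-cell libraries of the mouse. Members were cell barcodes that passed a filter and met a rule on raw UMIs, a UMI being the tag of 1 captured RNA molecule. The filter kept barcodes with 500 genes or more and with mitochondrial UMIs of 10% or less. The rule asked for at least 1 UMI of Pecam1, an endothelial surface gene, and at least 2 UMIs of the arterial genes Gja5, Sema3g and Stmn2 together. It allowed no UMI of Prox1, the lymphatic master factor, of the high endothelial venule enzymes Fut7 and Chst4, or of the venular receptor Ackr1. It found 787 of 11454 filtered barcodes in the SAH library and 680 of 11157 in the sham library, 1467 of 22611 in all.

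The SAH library pooled the nodes of 20 mice taken 24 h after subarachnoid haemorrhage, a bleed into the fluid space around the brain. The sham library pooled the nodes of 20 mice taken 24 h after a sham operation. Both suspensions were depleted of CD45-bearing leukocytes and then enriched on beads with antibodies to CD31 and podoplanin, so the shares below describe enriched cells and not the intact node. The labels call both libraries lymphatic endothelial cells, and the cells described here are the arterial blood vessel cells that the CD31 antibody also captures. Strain, sex, age and the way the bleed was produced are not given in the sources used here. With 1 library per group no difference between SAH and sham has a replicate check. Every interval below is a 95% interval for counting error only, and no p-value is given.

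Arterial endothelial cells differ from venous and capillary cells by a programme that Notch signalling and SoxF transcription factors maintain. Its hallmarks are the ligands Dll4, Jag1 and Jag2, the target Hey1, the guidance ligand Efnb2 and the gap junction connexins Gja5 and Gja4, which couple neighbouring endothelial cells. Shear stress from blood flow feeds into the same programme, and elastic fibre genes such as Fbln5 mark the larger vessels. In lymph nodes arteries branch into capillaries and then into high endothelial venules, where lymphocytes enter.

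The SAH library held 13766 barcodes and 78497486 UMIs, and the sham library 13952 barcodes and 72860197 UMIs. Arterial cells had a median of 4699 UMIs and 2006 genes in SAH, against 4520.5 UMIs and 1905.5 genes in sham. Their summed depth was 4446284 UMIs in SAH and 3634012 UMIs in sham. Mitochondrial UMIs made up a median of 3.83% in SAH arterial cells and 4.73% in sham ones. The libraries shared 76 barcode sequences, none of them among the members. Scrublet, a doublet caller, marked 64 SAH members (8.13%) and 38 sham members (5.59%), which were kept.

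The arterial label was checked against 11 endothelial genes (Cdh5, Cldn5, Egfl7, Flt1, Kdr, Ecscr, Esam, Ptprb, Tie1, Eng and Emcn), none of them used by the rule. As a group they are called pan-endothelial below. Their summed level had a median of 81.3 per 10000 UMIs in SAH members and 83.9 in sham members, close to the 79.6 and 77.7 of the other blood endothelium. A minority of members did not carry this signature. Below 30 per 10000, a limit set after the values were seen, lay 87 SAH members (11.1%) and 59 sham members (8.68%), and 47 SAH and 42 sham members lay close to it, between 20 and 40. Of the other blood endothelium 9.47% lay below it in SAH and 7.74% in sham. Members under the limit had medians of 8.91 in SAH and 6.81 in sham, against 4.43 and 2.65 in fibroblasts. Nearly all of them (95.4% in SAH and 96.6% in sham) held Stmn2, a tubulin-binding gene, while 24.1% and 16.9% held Sema3g.

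In place of endothelial genes, members under the limit carried stromal ones. The chemokine Ccl19 stood at 5174 CPM in SAH members under the limit and 3865 CPM in sham ones, against 262 and 241 CPM in members at or over it (CPM, the UMIs of a gene scaled to the summed UMIs of the cells). Ccl21a, the chemokine of the T-cell zone, stood at 35487 CPM in SAH and 24933 CPM in sham under the limit, against 1843 and 1247 CPM over it. The endothelial cadherin Cdh5 was at 67.2 CPM in SAH and 83.8 CPM in sham under the limit, against 816 and 1079 CPM over it. For these members the data go against the arterial label, and they are counted as rule members without a cell type name. They hold 18.1% of all arterial UMIs in SAH and 12.8% in sham. Some counts and leading values are therefore given a second time for the 700 SAH and 621 sham members at or over the limit. These are called the endothelial members below. Counts and values given once cover all rule members and can differ among endothelial members.

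**Figure D1:**
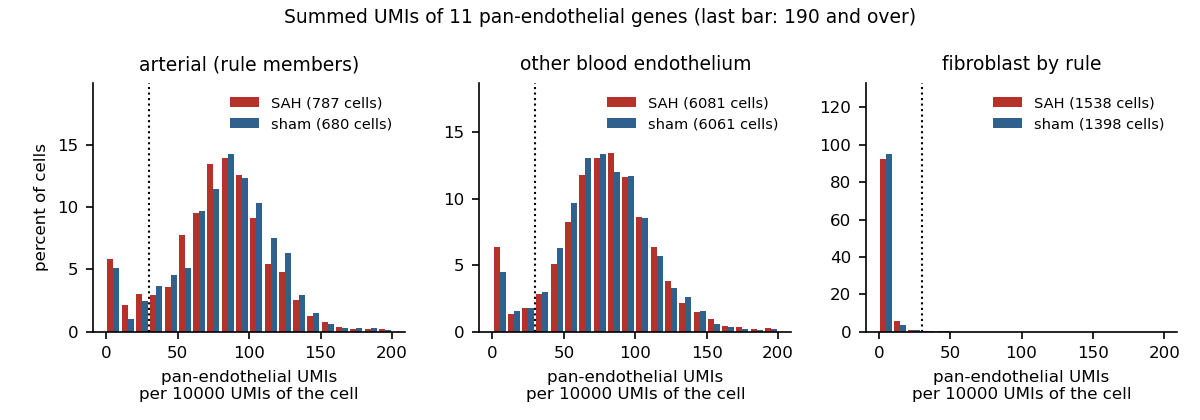
Share of cells (y axis, percent; each panel has its own scale) by the summed UMIs of 11 pan-endothelial genes per 10000 UMIs (x axis), SAH in red and sham in blue, for the rule members, the other blood endothelium and fibroblasts chosen by rule. The dotted line is the limit of 30; most arterial members peak near 80 to 90, and a small group, 11.1% in SAH and 8.68% in sham, lies on the fibroblast side.

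What chose the members is given as a description. Sema3g, a secreted semaphorin, averaged 380.3 CPM in SAH and 371 CPM in sham, Stmn2 388 and 379 CPM, and the connexin gene Gja5 32.2 and 96.3 CPM. Sema3g alone brought in 356 SAH members (45.2%) and 216 sham members (31.8%). Stmn2 alone brought in 115 SAH members, 66 of them under the limit, and 103 sham members, 49 of them under it. All 3 genes were found together in 55 SAH members (6.99%) and 93 sham members (13.7%). Just inside the rule lay 314 SAH and 254 sham members with 2 UMIs of these genes, and just outside lay 868 SAH and 675 sham barcodes with 1 UMI.

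Members were not uniform, and several arterial genes outside the rule, though not all, went up with the number of rule UMIs in a cell. This was read in blood endothelial cells over the same limit and without a Fut7, Chst4 or Ackr1 UMI, which leaves the venous-type cells out. The elastic fibre gene Fbln5 stood in SAH at 15.1 CPM in cells with no rule UMI, 30.2 with 1, 94.7 with 2, 173 with 3 or 4 and 491 with 5 or more. In sham the same groups held 10.9, 33.9, 91.4, 229 and 452 CPM. Fbln5 thus climbed along the whole range in both libraries, without a gap at the edge of the rule. The BMP target gene Tmem100 went from 3.08 to 129 CPM over the same span in SAH and from 2.98 to 173 CPM in sham. Nebl, which encodes the actin-linking protein nebulette, was picked from these data for its high ratio over the other blood endothelium. It went from 1.99 to 99.5 CPM in SAH and from 1.67 to 100.1 CPM in sham. Other arterial genes did not climb along the whole range. Igfbp3 stood at 978 CPM with no rule UMI, 1516 with 3 or 4 and 1229 with 5 or more in SAH. In sham it stood at 1113, 2181 and 2090 CPM. The SoxF factor Sox18 stood at 547 CPM with no rule UMI, 655 with 2 and 634 with 5 or more in SAH. In sham it stood at 700, 798 and 755 CPM.

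Some capillary genes went down with the number of rule UMIs. Rgcc, a cell cycle regulator typical of capillaries, stood at 1171 CPM in cells with no rule UMI and 417 CPM in those with 5 or more in SAH, against 1467 and 491 CPM in sham. The carbonic anhydrase Car4 went from 221 to 59.5 CPM in SAH and from 111 to 17.4 CPM in sham, and the apelin receptor Aplnr from 124 to 33.9 CPM in SAH and from 330 to 54.8 CPM in sham. The capillary gene Cd36 did not fall, at 576 CPM with no rule UMI and 790 CPM with 5 or more in SAH, and 226 and 236 CPM in sham. Fabp4, another one, ended lower in sham only, at 4299 and 4741 CPM in SAH and 3618 and 2428 CPM in sham. In Rgcc, Car4 and Aplnr the 2-UMI members stood between the cells with no rule UMI and those with 5 or more. They were 43.0% of endothelial members in SAH and 39.3% in sham. A marker of large arteries, Gkn3, was rare: it had 1 UMI or more in 1.65% of SAH members and 2.35% of sham members, against 0.02% and 0.10% of the other blood endothelium.

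**Figure D2:**
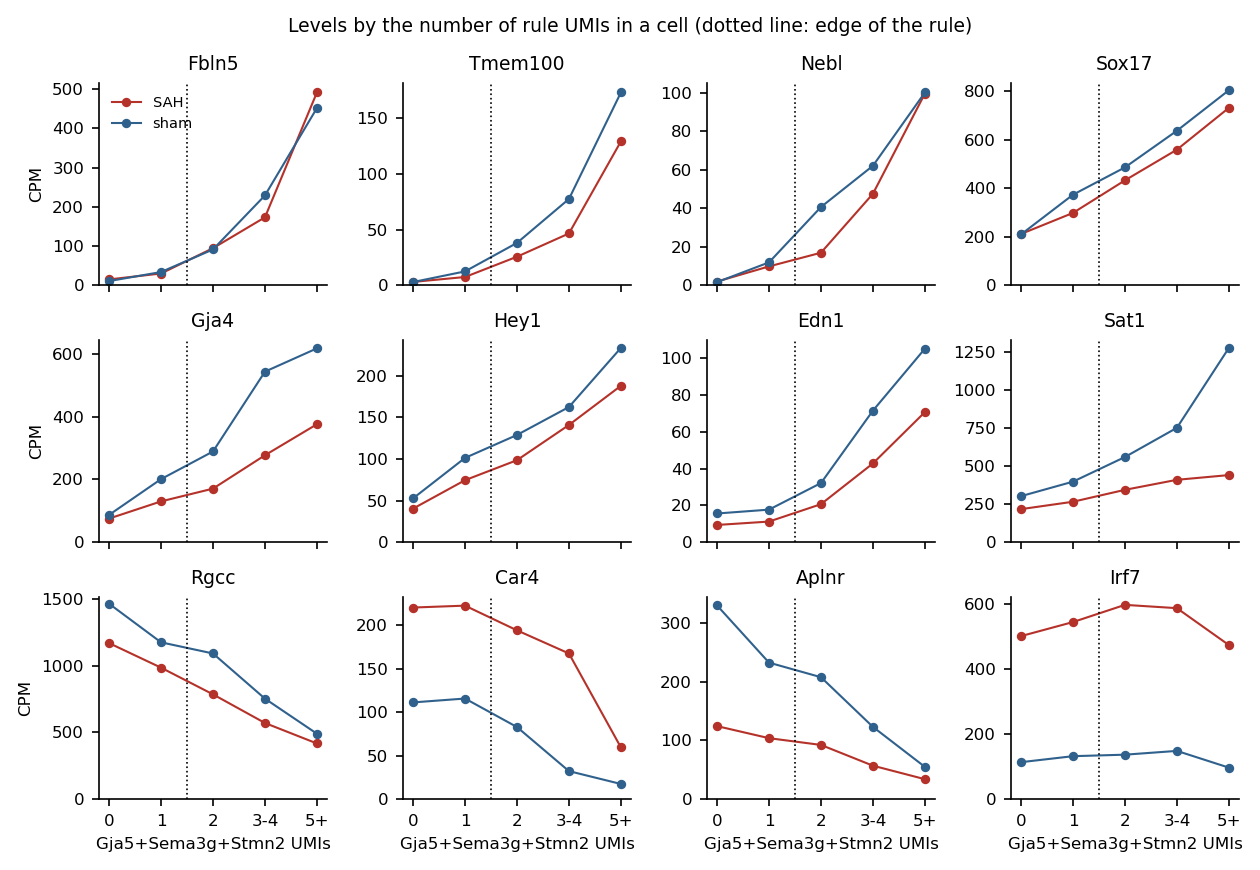
CPM (y axes, linear from 0) of 12 genes in blood endothelial cells without Fut7, Chst4 or Ackr1 UMIs, grouped by their summed Gja5, Sema3g and Stmn2 UMIs (x axes), SAH in red and sham in blue, cells under the pan-endothelial limit left out. Arterial genes such as Fbln5 climb to 491 CPM in SAH and 452 CPM in sham while the capillary gene Rgcc declines; Gja4 and Sat1 lie lower in SAH at every step inside the rule, and Irf7 lies higher.

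Against the other blood endothelium of the same library, 261 of 5435 genes with a mean of at least 25 CPM (4.8%) were at least 1.5-fold higher in arterial cells in both libraries. Among 36 measured genes of a list of arterial identity that the rule did not use, 32 passed this level filter and 22 of those met this fold. None of the 32 was at least 1.5-fold lower than the other blood endothelium in both libraries. The filter keeps genes through the arterial level itself, so these counts are descriptions. Hey2, Bmx, Gkn3 and Kcne3 did not pass it.

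Of the genes named for the highest ratios over the other blood endothelium, Nebl, Tmem100 and Fbln5 came next after Slpi. Nebl stood at 40.9 CPM in SAH arterial cells and 59.99 CPM in sham ones, which was 13.5-fold and 23.6-fold the other blood endothelium. Tmem100 was 9.20-fold and 16.7-fold higher, and Fbln5 8.25-fold and 13.8-fold higher. The phosphatase gene Alpl, at 37.6 CPM in SAH and 55.0 CPM in sham, was 8.55-fold and 15.5-fold higher. Among endothelial members, against blood endothelium over the limit, Tmem100 was 16.4-fold and 22.2-fold higher and Alpl 13.6-fold and 19.9-fold. Gja4 was 3.46-fold and 5.41-fold higher, Hey1 3.61-fold and 3.84-fold, the elastic fibre gene Fbln2 3.23-fold and 3.75-fold, and the SoxF factor Sox17 2.79-fold and 3.27-fold.

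Less familiar genes ranked beside them. Ptprr, a tyrosine phosphatase, was 4.82-fold higher in SAH arterial cells and 5.30-fold higher in sham ones. Atp13a3, a P-type ATPase of polyamine transport, was 4.81-fold and 5.09-fold higher. Nov, a matricellular CCN-family gene, was 3.73-fold and 3.59-fold higher, and Tm6sf1 3.25-fold and 3.81-fold. The matrix genes Fn1 (3.77-fold and 3.95-fold) and Mgp (3.59-fold and 3.12-fold), and S100a4 (3.64-fold and 6.12-fold, with 47.4% of its 50-base transcript pieces found in other genes), were also among the 20 highest. S100a4 was 10.9-fold higher in SAH and 11.2-fold higher in sham among endothelial members. Fn1 and Mgp stood higher in sham mural cells, at 764 and 1029 CPM, than in arterial cells of either library. S100a4 stood higher in SAH T cells, at 497 CPM. The part of such RNA in these ratios was not tested.

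Of those 20 genes, 14 were again among the 20 highest when only endothelial members were set against blood endothelium over the limit. The 6 that were not were Slpi, Ccl19, Slc7a11, Dsc3, Myh11 and CR974586.5. Myh11 and Acta2, both among the 20, are mural markers. They stood at 1367 and 6024 CPM in SAH mural cells, against 49.9 and 139 CPM in SAH arterial cells. Slpi, a protease inhibitor, rested on 1 cell per library, which held 805 of 810 UMIs in SAH and 352 of 358 in sham. In their place came Alpl, the growth factors Vegfc and Tgfb2, the vasoconstrictor Edn1, Myl9 and Col18a1. Of 9 mural markers past the filter 8 were at least 1.5-fold higher in arterial cells than in the other blood endothelium in both libraries, and 7 of 9 among endothelial members, Myl9 and Acta2 included. Their part in these ratios was not tested. Among endothelial members, 25 of the 32 arterial identity genes were at least 1.5-fold higher than the other blood endothelium in both libraries, with a background of 4.84%.

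**Figure D3:**
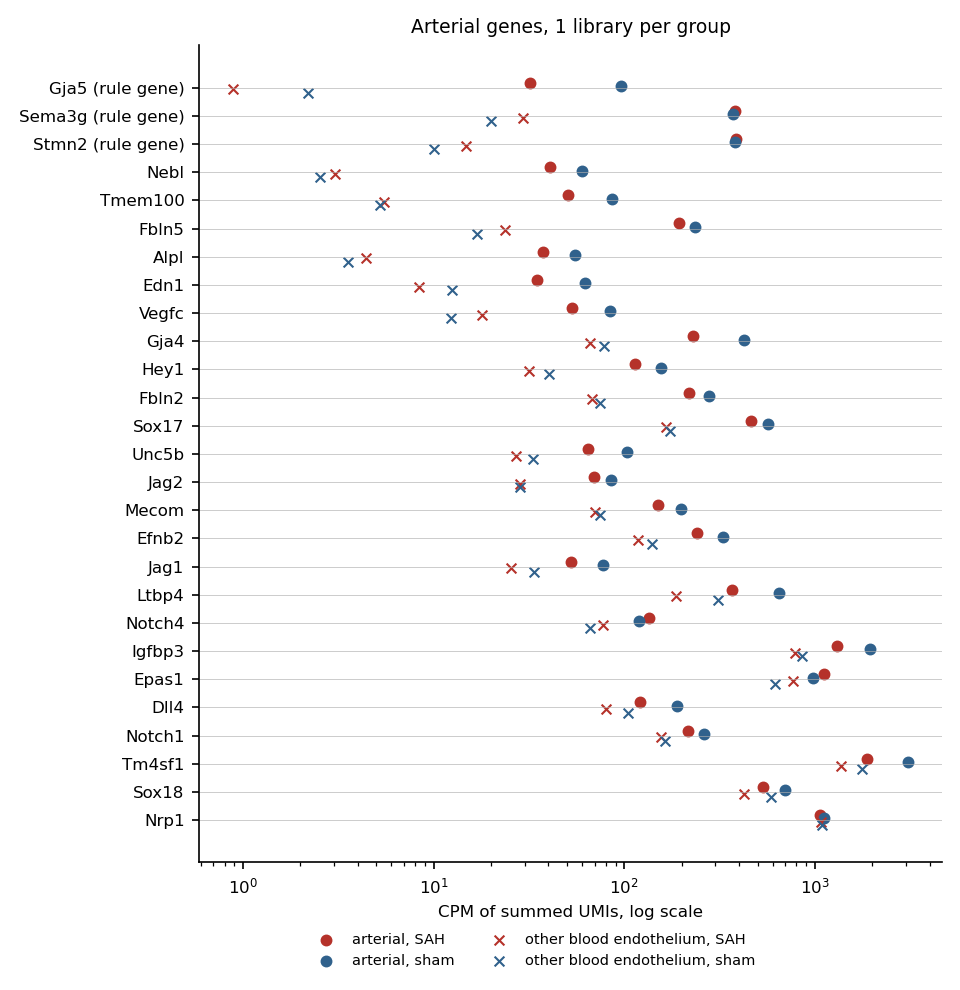
CPM (x axis, log scale) of 27 genes in arterial cells (circles) and other blood endothelium (crosses), SAH in red and sham in blue, 1 library per group, no error shown. For most genes the circles lie right of the crosses (Fbln5 at 194 and 234 CPM against 23.5 and 17.0 CPM), and for most of them the SAH circle lies left of the sham one.

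Arterial cells made up 6.87% of filtered SAH cells (exact Clopper-Pearson interval 6.41 to 7.35%) and 6.09% of filtered sham cells (5.66 to 6.55%). Of blood endothelial cells they were 11.5% in SAH (10.7 to 12.2%) and 10.1% in sham (9.38 to 10.8%). The rule counts raw UMIs and so finds more members where cells are deeper. With every cell thinned to 2000 UMIs the shares of blood endothelial cells were 4.995% in SAH (4.46 to 5.57%) and 4.68% in sham (4.16 to 5.24%), and these intervals overlap. The unthinned intervals of SAH and sham given above overlap as well, for filtered cells and for blood endothelial cells. All of these intervals cover counting error only, and neither group had a replicate library. A difference in the share of arterial cells between SAH and sham was therefore not tested, at raw or at equal depth. Without cells that held markers of other cell types, members were 3.003% of all filtered cells in SAH and 3.83% in sham, the opposite order, and 12.7% of the remaining blood endothelial cells in SAH and 10.9% in sham, the same order.

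Within arterial cells, 323 of 5435 genes (5.94%) were at least 1.5-fold higher and 212 (3.9%) at least 1.5-fold lower in SAH than in sham. In the other blood endothelium the same count gave 250 of 5235 genes (4.78%) higher and 121 (2.31%) lower. Among endothelial members it gave 346 of 5397 genes higher (6.41%) and 211 lower (3.91%). The median log2 ratio over all genes tested was -0.01. List members below are read against these shares.

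Over all members together, arterial identity genes were lower in the SAH library as a group. Of the 32 past the filter, 9 were at least 1.5-fold lower and 2 at least 1.5-fold higher, with a median log2 ratio of -0.36. In the other blood endothelium 26 of the same list passed, 1 was lower, 3 were higher and the median was -0.09. Among endothelial members 9 were lower, 1 was higher and the median was -0.31. The higher genes were Clu (2543 CPM in SAH and 1388 CPM in sham), which encodes a secreted chaperone, and Mgp (390.0 and 259 CPM), an inhibitor of calcification. Among endothelial members Mgp was 1.25-fold higher and Clu 1.51-fold higher. There the Mgp ratio was 0.87 with 2 rule UMIs, 0.54 (0.43 to 0.68) with 3 or 4 and 2.03 with 5 or more. Over all members, 10 cells held 38.1% of Mgp UMIs in SAH and 32.4% in sham.

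The 2 arterial connexin genes, the gap junction subunits that carry conducted signals along arterioles, were lower in SAH as well. Gja4 is on the arterial identity list, and Gja5 is not, because it was used by the rule. Gja4 (minus strand, chr4:127311421-127314039) stood at 229.9 CPM in SAH arterial cells and 424 CPM in sham ones, a ratio of 0.54 (0.50 to 0.59). In the other blood endothelium it stood at 66.5 and 78.4 CPM, a ratio of 0.85. SAH mural cells held more Gja4 than SAH arterial cells, at 326 CPM, and the part of mural RNA in its ratio was not tested. The lower Gja4 level held in cells with 2 rule UMIs (171 CPM in SAH and 289 CPM in sham), 3 or 4 (277 and 543 CPM) and 5 or more (375 and 617 CPM).

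Gja5 (plus strand, chr3:96904693-97077416, build GRCm38 for all coordinates) stood at 32.2 CPM in SAH and 96.3 CPM in sham, a ratio of 0.33 (0.27 to 0.41). Gja5 was part of the rule, so its level was also read in cells chosen by Sema3g and Stmn2 alone, where it was 24.5 CPM in SAH and 79.4 CPM in sham (ratio 0.31, 0.24 to 0.39). After thinning, 7.06% of SAH arterial cells (5.29 to 9.20%) and 15.3% of sham ones (12.6 to 18.4%) had a Gja5 UMI. These are members of the full rule, which Gja5 itself helped to choose, so their shares are a description only. In fibroblasts, a type that should lack the gene, the thinned share was 0.07% in SAH and 0.23% in sham. Unthinned, 13.1% of SAH and 27.2% of sham arterial cells had one. The median fibroblast held 6397.5 UMIs in SAH and 4733.5 UMIs in sham, more than the median arterial cell. Other annotated genes hold 13.2% of the 50-base pieces of Gja5 transcripts, so part of its count is uncertain.

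The promoters of the connexin genes are shown because both genes were lower, from 250 bases before to 50 after the gene start, from RefSeq on build GRCm38.p6. That of Gja5 lies on the plus strand of chr3:97032152-97032451, inside the longer gene of the GENCODE annotation above, so the RefSeq start is not the GENCODE one. That of Gja4 lies on the minus strand of chr4:127313990-127314289. Neither window held the RBPJ core GTGGGAA, through which Notch acts, or the SOX core AACAAT, on either strand, so no base is in capitals.
Gja5: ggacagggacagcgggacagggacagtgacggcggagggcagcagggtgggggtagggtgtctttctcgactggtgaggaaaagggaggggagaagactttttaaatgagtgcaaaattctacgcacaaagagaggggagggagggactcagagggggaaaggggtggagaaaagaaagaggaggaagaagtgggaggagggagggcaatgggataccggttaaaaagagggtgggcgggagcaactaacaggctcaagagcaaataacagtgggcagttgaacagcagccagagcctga
Gja4: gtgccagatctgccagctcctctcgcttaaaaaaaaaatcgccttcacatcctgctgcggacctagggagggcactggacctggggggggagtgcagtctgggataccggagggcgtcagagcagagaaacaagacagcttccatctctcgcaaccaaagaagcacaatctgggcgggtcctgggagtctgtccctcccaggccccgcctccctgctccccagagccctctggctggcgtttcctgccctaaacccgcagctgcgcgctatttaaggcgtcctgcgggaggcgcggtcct
Of 27 arterial identity genes with a promoter in the table, 1 held the RBPJ core (3.70%) and 1 the SOX core (3.70%), against 7.25% and 12.2% of all 27025 genes and 6.58% and 6.94% of those past the level filter.

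Several secreted or surface genes of the arterial list had similar ratios. The connective tissue gene Ltbp4 stood at 366 CPM in SAH and 649 CPM in sham (ratio 0.56), but its ratio was 0.60 in the other blood endothelium too. Edn1, the endothelin precursor, stood at 34.9 and 61.9 CPM (0.56, against 0.67 elsewhere). Tmem100 stood at 50.4 and 86.7 CPM (0.58), while the other blood endothelium held 5.48 and 5.21 CPM. The tetraspanin-like gene Tm4sf1 stood at 1873 and 3087 CPM (0.61), the netrin receptor Unc5b at 64.5 and 103 CPM (0.63), Vegfc at 53.3 and 83.9 CPM (0.64), and the IGF binding protein Igfbp3 at 1310 and 1945 CPM (0.67). Cxcr4, the receptor of Cxcl12, had a ratio of 0.49 in arterial cells and 0.50 in the other blood endothelium.

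The transcription factors of the programme differed less. Sox17 stood at 461 CPM in SAH and 565 CPM in sham (ratio 0.82), Sox18 at 536 and 699 CPM (0.77), Mecom at 150.2 and 198 CPM (0.76) and Hey1 at 114 and 155 CPM (0.74). Sox7 stood at 53.1 and 59.4 CPM, with an interval of the ratio from 0.74 to 1.08. Fbln5, Fbln2, Jag2, Notch1 and Slc6a6 had ratios of 0.79 to 0.83, and Efnb2 of 0.73. Nrp1, Htra1, Tsc22d1, Eln, Cxcl12, Notch4 and Epas1 had ratios of 0.95 to 1.14. Alpl had a ratio of 0.68. These ratios pool members with few and many rule UMIs. Among endothelial members with 5 or more, Fbln5 had 1.09, Jag1 1.02, Jag2 1.01, Fbln2 0.95, Alpl 0.91 and Sox17 0.91. With 3 or 4 the same genes had 0.46 (Jag1) to 0.88 (Jag2). Others stayed lower with 5 or more: Dll4 0.58, Igfbp3 0.59, Vegfc 0.64, Edn1 0.67, Ltbp4 0.67, Efnb2 0.80 and Hey1 0.81. Members with all 3 rule genes were 6.99% in SAH and 13.7% in sham, and the part of this make-up was not tested.

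Of 20 Notch pathway genes 14 passed the filter, 2 of them at least 1.5-fold lower and none higher. Their median log2 ratio was -0.32 (-0.25 in the other blood endothelium). Among endothelial members 3 of 15 were lower and none higher, with a median of -0.28. Over all members the feedback target Nrarp stood at 52.6 CPM in SAH and 97.7 CPM in sham (ratio 0.54, 0.45 to 0.64, against 0.78 elsewhere). The ligand Dll4 stood at 120.5 and 190.1 CPM (0.63, 0.57 to 0.71; 0.77 elsewhere), and Jag1 at 52.4 and 77.0 CPM (0.68). The receptor Notch4 and the DNA-binding partner Rbpj had ratios of 1.13. Of 23 genes of BMP and ALK1 signalling, a pathway that arterial flow engages, 16 passed the filter. Of these 3 were lower (Tmem100, Ltbp4 and Tgfb2) and none was higher, with a median of -0.36. Among endothelial members 3 of 17 were lower and none higher, with a median of -0.26. Over all members Tgfb2 stood at 77.6 CPM in SAH and 129 CPM in sham (0.60), against 26.1 and 30.3 CPM in the other blood endothelium. The inhibitory factor Smad6 and Id2 had ratios of 0.69 and 0.68.

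The gene with the widest gap between arterial and other blood endothelium in its SAH ratio among the 14 lowest was Sat1, spermidine/spermine acetyltransferase, which starts polyamine breakdown. It was singled out after its values were seen. Sat1 (minus strand, chrX:155213132-155216449) stood at 346 CPM in SAH arterial cells and 789.8 CPM in sham ones (ratio 0.44, 0.41 to 0.47), against 197 and 266 CPM in the other blood endothelium (0.74, 0.72 to 0.76). Among the cells grouped by rule UMIs, with venous-type cells left out, it stood at 217 CPM in SAH and 303 CPM in sham without a rule UMI, and at 441 CPM in SAH and 1276 CPM in sham with 5 or more. The ratio was 0.72 at the capillary end and 0.35 (0.31 to 0.39) at the arterial end, with 0.67, 0.62 and 0.55 at the steps between them.

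Immediate early genes, the first to be transcribed when a cell is stimulated, were lower in SAH. Of 24 past the filter 9 were at least 1.5-fold lower and none higher, with a median log2 ratio of -0.49. In the other blood endothelium 3 of 23 were lower, with a median of -0.20, and among endothelial members 7 of 22, with a median of -0.37. Jund stood at 1315 CPM in SAH and 2254 CPM in sham (0.58), the phosphatase Dusp1 at 894 and 1472 CPM (0.61), Fosl2 at 97.6 and 202 CPM (0.48) and Maff at 20.9 and 48.4 CPM (0.43). The flow-responsive factor Klf2 stood at 1553 and 2311 CPM (0.67, 0.65 to 0.69), against 1135 and 1390 CPM in the other blood endothelium (0.82).

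Genes of the inflammatory NF-kB pathway differed in both directions. Of 18 past the filter 2 were higher (Nfkb2, 66.3 CPM in SAH and 36.0 CPM in sham, and Nfkbie) and 4 were lower. The lower ones were the feedback inhibitor Nfkbia (917 and 1438 CPM, ratio 0.64), the factor Cebpb (92.0 and 243 CPM, 0.38) and the monocyte chemokines Ccl2 (67.5 and 150.2 CPM) and Ccl7 (35.8 and 106 CPM). The 10 cells with most UMIs held 70.7% of Ccl2 UMIs in SAH and 63.9% in sham, and 62.3% and 71.9% of Ccl7 UMIs, so both rest on few cells. Of 13 coagulation genes past the filter 1 was higher and 3 were lower, against 2 and 2 of 14 in the other blood endothelium. Among the lower ones was the tissue plasminogen activator Plat (17.1 CPM in SAH and 41.0 CPM in sham). Its ratio was 0.42, against 0.79 in the other blood endothelium.

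Interferon-stimulated genes had the most higher members of the 31 lists. Of 38 past the filter 21 were at least 1.5-fold higher and none lower, with a median log2 ratio of 0.69, and among endothelial members 24 of 38, with a median of 0.75. This was shared with the other blood endothelium, where 26 of 36 were higher and the median was 0.71. Irf7 (minus strand, chr7:141262706-141266481), a master factor of the interferon response, stood at 483 CPM in SAH and 114 CPM in sham arterial cells, a ratio of 4.25 (3.82 to 4.73), against 4.60 in the other blood endothelium. After thinning, 56.5% of SAH arterial cells and 22.2% of sham ones had an Irf7 UMI, and 17.7% of SAH and 2.91% of sham fibroblasts did. Unthinned the arterial shares were 74.0% and 39.4%. The ratio ranged from 3.96 to 4.90 over cells with 0, 1, 2, 3 or 4, and 5 or more rule UMIs, with venous-type cells and cells under the limit left out.

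Most other members had smaller ratios. The small membrane protein gene Ifi27l2a stood at 699 CPM in SAH and 178 CPM in sham (3.93; 2.86 among endothelial members). The antiviral enzyme Oas1a stood at 50.8 and 12.9 CPM (3.93), the DNA sensor Zbp1 at 93.3 and 38.8 CPM (2.41), and viperin, encoded by Rsad2, at 271 and 131 CPM (2.07). The ubiquitin-like modifier Isg15 stood at 567 and 309.9 CPM (1.83), against 2.48 in the other blood endothelium. The lymphocyte attractant Cxcl9 stood at 341 and 68.5 CPM (4.97, 4.34 to 5.71; 2.59 elsewhere), but 10 cells held 50.1% of its UMIs in SAH and 63.9% in sham. Its relative Cxcl10 stood at 129 and 122 CPM.

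The promoters of this list share a sequence, the interferon response core GAAANNGAAA, searched on both strands. It was present for 20 of 30 list genes with a promoter in the table (66.7%), against 3.99% of all 27025 genes and 4.69% of those past the level filter. It was no more frequent among members at least 1.5-fold higher in SAH (9 of 15, 60%) than among the other members past the filter (10 of 14, 71.4%). The RefSeq windows below, on build GRCm38.p6 and given 5′ to 3′ on the gene's strand, show 1 stretch each from 8 higher genes, with the cores in capitals and 10 bases on each side. A core on the opposite strand reads TTTCNNTTTC. A match is a match of letters and not evidence of binding.
Isg15 (minus strand, chr4:156200865-156200906): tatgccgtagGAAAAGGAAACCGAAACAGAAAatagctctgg
Oas1a (minus strand, chr5:120907520-120907555): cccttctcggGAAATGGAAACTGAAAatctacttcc
Ifitm3 (minus strand, chr7:141010706-141010735): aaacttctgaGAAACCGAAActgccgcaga
Ifit1 (plus strand, chr19:34640794-34640823): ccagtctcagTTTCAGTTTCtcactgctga
Ifit3 (plus strand, chr19:34583397-34583426): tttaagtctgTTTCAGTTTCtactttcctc
Gbp2 (plus strand, chr3:142620594-142620623): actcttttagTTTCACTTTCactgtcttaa
Gbp7 (plus strand, chr3:142530273-142530302): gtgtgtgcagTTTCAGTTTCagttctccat
Rsad2 (minus strand, chr12:26456553-26456582): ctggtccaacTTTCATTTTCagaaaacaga
The Isg15 stretch held 3 overlapping cores and the Oas1a stretch 2. Ifit3b, a near copy of Ifit3, has the same 30 bases at chr19:34607793-34607822, and counts of these copies may be divided between them. The Irf7 and Cxcl9 windows held no core.

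Genes of antigen presentation and complement included some with higher SAH levels. Of 17 genes of MHC class I presentation 4 were at least 1.5-fold higher and none lower, with a median log2 ratio of 0.36 (0.37 in the other blood endothelium). They were H2-T23 (684 CPM in SAH and 259 CPM in sham), H2-Q4 (379.9 and 176 CPM), Psmb8 (636 and 395 CPM) and H2-Q6 (414 and 270.5 CPM), of which the H2 genes have near-identical relatives and uncertain counts. Of 11 complement genes 6 were higher, among them C3 (1610 CPM in SAH and 882 CPM in sham) and C4b (417 and 234 CPM). Among endothelial members 6 of 10 complement genes were higher and 1 lower, with C3 at 735 and 376 CPM (1.96).

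**Figure D4:**
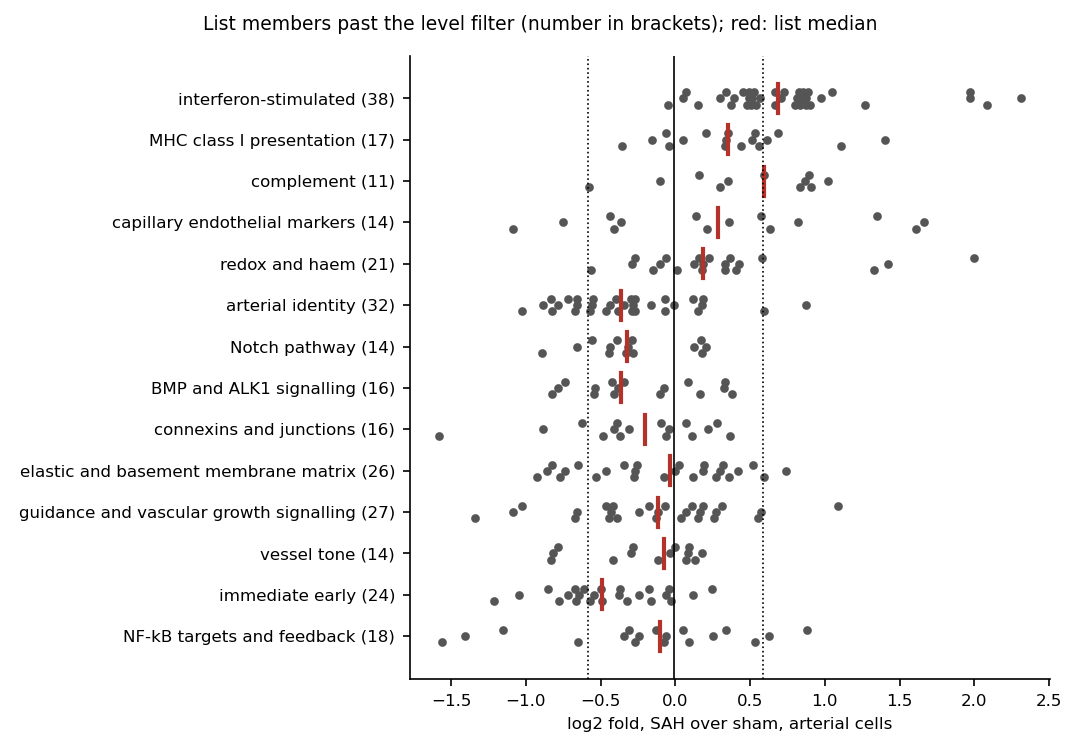
Log2 ratio of SAH over sham CPM (x axis) for each list member past the level filter (dots) in arterial cells, with the list median as a red bar, the median of all genes as a solid line at -0.01 and 1.5-fold as dotted lines. The interferon list has a median of 0.69, and arterial identity and immediate early genes have medians of -0.36 and -0.49.

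Capillary genes differed in both directions. Of 14 past the filter 5 were at least 1.5-fold higher and 2 lower, with a median log2 ratio of 0.29 (0.43 among endothelial members and 0.16 in the other blood endothelium). The fatty acid transporter Cd36 stood at 661 CPM in SAH and 208 CPM in sham (3.17, 2.93 to 3.44; 2.55 elsewhere). Car4 stood at 125 and 41.0 CPM (3.05, 2.54 to 3.68; 1.87 elsewhere), and Gpihbp1, which anchors lipoprotein lipase, at 679 and 385 CPM (1.76). Timp4 stood at 40.7 and 15.96 CPM (2.55), whereas the other blood endothelium held 82.6 and 101 CPM, a ratio of 0.82. The fatty acid binding gene Fabp4 stood at 4457 and 2994 CPM (1.49; 1.14 elsewhere). The 2 lower genes were Aplnr (56.0 and 119 CPM, 0.47) and the tip cell gene Esm1 (94.7 and 159 CPM, 0.59), both lower in the other blood endothelium as well. Rgcc stood at 524 and 697 CPM (0.75; 0.76 elsewhere). The 2-UMI members, nearest of the members to cells with no rule UMI in Rgcc, Car4 and Aplnr, were 43.0% of endothelial members in SAH and 39.3% in sham. Among endothelial members the Car4 ratio was 2.34 with 2 rule UMIs, 5.21 with 3 or 4 and 3.42 with 5 or more.

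Matrix genes went both ways. Of 26 past the filter 2 were higher (Mgp and the proteoglycan Bgn, 349.7 CPM in SAH and 209 CPM in sham) and 6 lower, with a median of -0.04. The lower ones were Thbs1, Nid2, Ltbp4, Col18a1, Col8a1 and the basement membrane proteoglycan Hspg2 (442 and 694 CPM, 0.64). Nid2 stood at 42.5 and 77.0 CPM with a ratio of 0.55 in arterial and in other blood endothelium alike. Among endothelial members none of 25 was higher and 6 were lower, with a median of -0.17. Col8a1, a collagen enriched 14.9-fold in SAH and 19.2-fold in sham arterial cells, stood at 31.0 and 51.7 CPM (0.60).

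Of 27 guidance and growth factor genes 1 was higher and 5 were lower. The higher one, the placental growth factor Pgf, stood at 36.9 CPM in SAH and 17.3 CPM in sham (14.3 and 8.84 CPM among endothelial members). Besides Vegfc, Unc5b, Cxcr4 and Aplnr, the scavenging receptor Ackr3 was lower, at 40.5 and 102 CPM (0.40; 0.48 elsewhere). Of 14 vessel tone genes 3 were lower, among them Edn1 and Ddah1, and none higher. Of 16 junction genes 3 were lower, Gja5, which chose the members, Gja4 and the adhesion gene Esam (492 CPM in SAH and 759.5 CPM in sham). Esam missed the fold among endothelial members (0.68), which leaves Gja4 outside the rule. Cdh5 stood at 681 and 951 CPM (0.72; 0.69 elsewhere). Of 14 leukocyte adhesion genes Glycam1 was higher and Mcam lower (127 and 223 CPM, 0.57). Glycam1, a high endothelial venule product, stood at 416 and 227 CPM in arterial cells against 11708 and 11630 CPM elsewhere.

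Smaller counts came from the other lists. Of 21 redox and haem genes 3 were higher: Gstp1, Xdh and the peroxidase Gpx3, at 206 CPM in SAH and 82.0 CPM in sham. Of 12 heat shock genes 2 were lower, Hspa1a (41.8 and 75.7 CPM) and Hspa1b. Of 12 glucocorticoid response genes Sult1a1 was higher (137 and 70.2 CPM) and Dusp1 and Per1 lower. Of 16 shear stress genes Cyp1b1 was higher and Edn1 and Cxcr4 lower. Nuclear respiratory chain genes had 1 higher and 1 lower of 24, mitochondrial genome genes 1 and 2 of 13, and cell cycle genes none of 4. Of 8 venous genes past the filter Ccl21a, Glycam1 and Nr2f2 were higher, but Glycam1 alone among endothelial members. Among endothelial members 4 of 20 redox and haem genes were higher and 1 lower, and 1 of 12 heat shock genes was lower. Of 12 glucocorticoid response genes 2 were higher and 1 lower there.

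Across all genes, the 14 with the highest ratios (mean of at least 50 CPM, interval excluding 1) included Ccdc85b, CR974586.5, Cxcl13, Trim37, Cxcl9, Irf7, Gstp1, Ifi27l2a, Slfn2, Scgb3a1, Cd36, Car4 and Xdh. Ccdc85b stood at 114 CPM in SAH and 10.7 CPM in sham, a ratio of 10.7 (7.68 to 15.1), against 7.67 in the other blood endothelium. Trim37, a ubiquitin ligase gene, stood at 88.6 and 14.3 CPM (6.19; 4.46 elsewhere). Other genes hold 33.7% of the 50-base pieces of Gstp1, so its count is uncertain. The B-cell chemokine Cxcl13 had a ratio of 6.23, with 72.2% of its SAH UMIs and 68.9% of its sham UMIs in 10 cells, and 3.84 among endothelial members. Only CR974586.5 left the highest 14 among endothelial members, where H2-T23 took its place.

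The 14 with the lowest ratios were Gja5, Ccl7, Cebpb, Ackr3, Hypk, Tmem252, Sat1, Ccl2, Aplnr, Fosl2, Hnrnpa0, Rasd1, Thbs1 and Mgst3. Gja5 was part of the rule, so its place is a description only. Tmem252 stood at 206 CPM in SAH and 487 CPM in sham (0.42; 0.40 elsewhere), and the RNA-binding gene Hnrnpa0 at 166 and 317 CPM (0.52 in both populations). Hypk (57.8 and 146 CPM, 0.40; 0.41 elsewhere) has 32.8% of its pieces in other genes and is uncertain too. Among endothelial members 9 of the 14 were again among the lowest, and Ccl2, Ccl7, Mgst3, Rasd1 and Thbs1 were not. Genes over 10 times higher in another cell class were set apart: Saa3 (293 CPM in SAH and 8.26 CPM in sham), Inmt (84.3 and 33.0 CPM) and Ccl11 (38.5 and 80.1 CPM), each highest in fibroblasts.

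**Figure D5:**
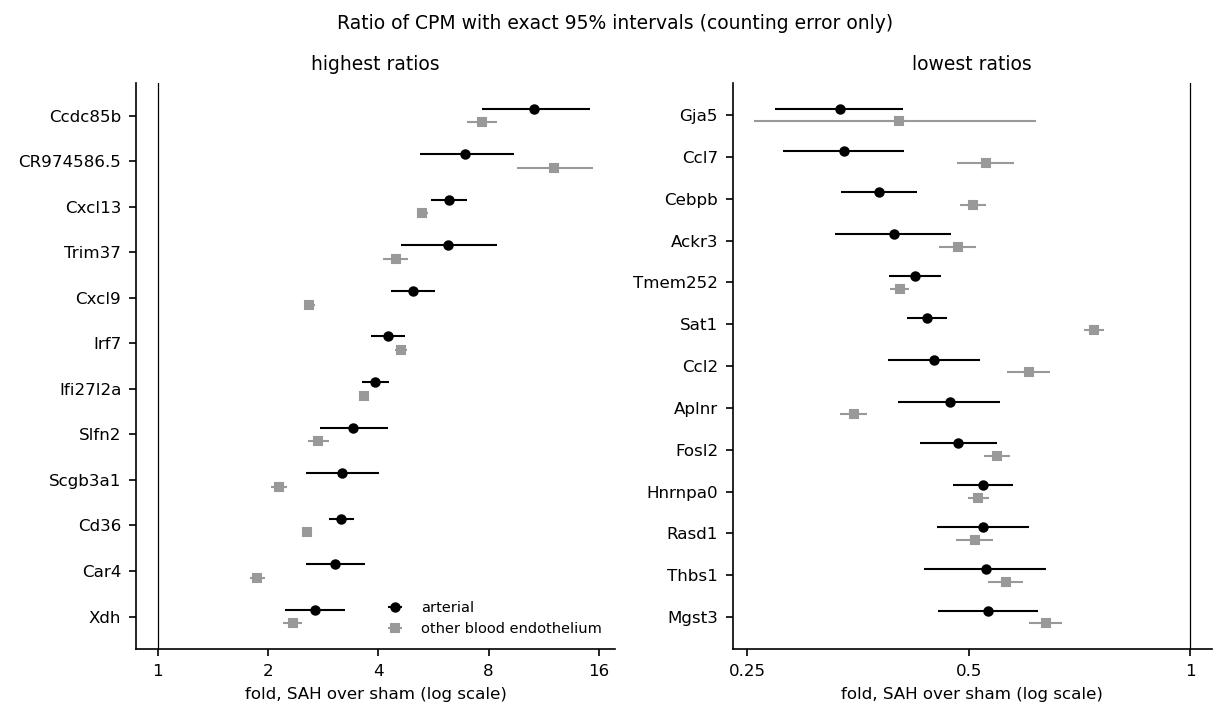
Ratio of SAH over sham CPM (x axes, log scale) with exact 95% counting intervals for the highest and lowest genes in arterial cells (black circles) and the same genes in the other blood endothelium (grey squares), leaving out genes with 25% or more of their 50-base transcript pieces in other genes. Sat1 differs most among the lowest (0.44 in arterial cells and 0.74 elsewhere), Cxcl9 and Car4 are further from 1 in arterial cells, and the values of Hnrnpa0 nearly coincide.

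Markers of other cell types were present in members and differed between libraries. More than 1 UMI of the fibroblast markers was held by 377 of 787 SAH members and 177 of 680 sham members. Only 344 SAH and 427 sham members held at most 1 UMI of each of the mural, fibroblast, leukocyte and neural lists. The 12 fibroblast markers summed to 4399 CPM in SAH and 2718 CPM in sham, with 5 of 10 past the filter higher, and to 1884 and 1257 CPM among endothelial members, with 3 of 8 higher. In the other blood endothelium they summed to 3457 and 1786 CPM. The 12 mural markers summed to 1181 CPM in SAH and 1447 CPM in sham (721 and 820 CPM among endothelial members), with Des higher, Acta2, Tagln and Myl9 lower, and Cnn1 at 1 UMI in SAH and 0 in sham. Among endothelial members 1 of 9 was lower. The 13 leukocyte markers summed to 160.1 and 189 CPM, of which Cd74 made up 144 and 135 CPM, with Cd3e and Itgam at 0 in SAH. The 12 neural markers summed to 33.1 and 24.8 CPM, with Elavl4 and Snap25 at 0 in both. The 11 salivary markers summed to 269.7 and 243 CPM, with Krt8 at 0 in SAH and 77 of its 81 sham UMIs in 1 cell. Of 12 lymphatic markers 2 passed the filter and Ccl21a was higher, summing to 8060 CPM in SAH and 4380.0 CPM in sham. Their part in the results above was not tested.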

How the data were processed

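Single-cell RNA of 2 libraries (1 SAH, 1 sham, 20 mice pooled in each) was captured with a droplet platform that tags the 5′ end, per the labels' protocols. The deposited values are counts of UMIs per gene and barcode, made by the authors with cellranger 5.0.0 per the file headers. The submitters' processing notes also name STAR, Seurat 3.0.2 and the mouse build mm10, which is GRCm38. Filters applied before deposit are not given in the sources used here.

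From the counts, members were chosen by rule, UMIs were summed per library over members and scaled to CPM, and ratios were taken of SAH over sham. Intervals are exact (conditional binomial for ratios, Clopper-Pearson for shares, 95%) and cover counting error only. The other blood endothelium is every other filtered barcode with Pecam1 and without Prox1. Genes needed a mean of 25 CPM over both libraries, and a fold of 1.5 counted. Named genes were the 14 highest and 14 lowest with a mean of at least 50 CPM and an interval that excludes 1, and the 20 highest over the other blood endothelium in both libraries. Ribosomal, mitochondrial, haemoglobin, immunoglobulin, histone and predicted genes were left out of these, and genes over 10 times higher in another cell class were set apart from the 14 highest and 14 lowest, but not from the 20. Shares of cells with a UMI were read after thinning to 2000 UMIs, which left out 79 SAH and 67 sham members. Doublets were called with Scrublet (expected rate 0.1) in scanpy 1.11.5 and removed in an alternative. Scripts ran in Python 3.11.15 with scipy 1.17.1 and were tested on simulated data. Coordinates are from GENCODE M21. Some genes that met these rules are not reported here.

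The members, marker lists and tests were chosen with earlier results of these data known. The pan-endothelial limit, the rule of 5 UMIs and the rule without Gja5 were added after the values were seen.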

Additional observations from a re-analysis of the deposited data

Results flagged for a closer look

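The haemoglobin gene Hbb-bt differed in opposite directions in arterial cells and in the other blood endothelium. It stood at 84.8 CPM in SAH arterial cells and 1.10 CPM in sham ones, a ratio of 77.0. In the other blood endothelium it stood at 100.2 CPM in SAH and 166 CPM in sham, a ratio of 0.604. The difference between the populations was not tested. Of the 1951 UMIs of its neighbour Hbb-bs in SAH arterial cells, 1903 lay in 2 cells, and the sham arterial cells held 24 UMIs in 23 cells.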

How the results depend on the processing

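No paired analysis was possible because each group is 1 library, and for the same reason no replicate could be left out. Of the main values recomputed under the alternatives, 96 stayed within their interval or within 1.5 times and 31 did not. Those 31 were mostly shares, given as percent of filtered cells and of blood endothelial cells. A rule of 3 UMIs gave 4.13% and 6.89% in SAH and 3.82% and 6.32% in sham. Gja5 and Sema3g alone gave 5.04% and 8.401% in SAH and 4.38% and 7.25% in sham. Thinning gave 2.93% and 4.995% in SAH and 2.82% and 4.68% in sham. Leaving out cells with markers of other types gave 3.003% and 12.7% in SAH and 3.83% and 10.9% in sham. The pan-endothelial limit gave 6.11% of filtered cells in SAH and 5.57% in sham. A rule of 5 UMIs gave 2.15% and 3.58% in SAH and 2.12% and 3.52% in sham.

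Thinning served only to choose members here (306 in SAH and 286 in sham), and levels were read from their full counts. Genes at least 1.5-fold lower in SAH numbered 321 with those members. With 5 rule UMIs 392 were lower, and 429 genes were higher than in the other blood endothelium. Without the level filter 1623 genes were higher and 951 lower. At 100 CPM or more 98 were higher and 68 lower, with 4 arterial identity genes lower. With members chosen after thinning 14 immediate early genes were lower. The level filter sets how many genes are counted, and why these counts differ otherwise was not tested.

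The log2 ratio of Slpi turned to -0.80 without doublets, -7.68 with 3 rule UMIs and -0.57 with Gja5 and Sema3g. It was -1.14 with members chosen after thinning, -0.16 with cells weighted equally, -0.46 at the limit and -8.59 with 5 rule UMIs. Its reported ratio rests on 1 cell per library. Ccl11 turned to 0.10 with Gja5 and Sema3g, and Ccl2 to 0.21 with members chosen after thinning. Of the named genes under 1.5-fold, the sign differed from the reported one for Fn1 (up to 0.45) and Fbln5 (up to 0.03) without cells that held markers of other types, for Slc7a11 with Gja5 and Sema3g (-0.15), for Myh11 under 2 of 13 alternatives and for Dsc3 under 7. Of all values of single genes and lists, 1563 stayed, 389 moved and 9 turned. The less abundant arterial genes Gkn3, Bmx and Hey2 were under the level filter and are not in the main list counts.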
